A study of Mus musculus with 2 samples.

Results

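The miR-30 family of the mouse is encoded by 6 microRNA genes, Mir30a, Mir30b, Mir30c-1, Mir30c-2, Mir30d and Mir30e, and it was followed here in small RNA sequencing of whole heart. Members were found by gene symbol in the annotation release that the deposited counts use, and all 6 are among the 2202 microRNA genes counted. The hearts came from 2 male B6CASTF1/J mice aged 2 months, which are first-generation hybrids of C57BL/6J with CAST/EiJ, a strain derived from wild mice, with 1 library per heart. No treatment and no second tissue is given, so the libraries form 1 group of 2 replicates and no comparison between conditions exists. The labels give both samples the same donor identifier and number the males differently. If the hearts were not from separate animals, the spread below is technical.

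MicroRNAs are cut from hairpin transcripts, and either arm of the hairpin, called 5p and 3p, can give a mature strand of about the length sequenced here. Bases 2 to 8 of the mature strand, the seed, pair with target messenger RNAs, so microRNAs with the same seed form a family with overlapping targets. The miR-30 family is known from heart for its targeting of connective tissue growth factor, a secreted inducer of matrix that miR-133 also targets, and elsewhere for the autophagy gene Beclin 1 and the Notch ligand Dll4 of endothelial cells. Its genes lie as pairs at 3 places in the genome.

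Mature sequences were taken from RefSeq on GRCm38.p6, which held 4 of the 6 members, Mir30a, Mir30c-1, Mir30c-2 and Mir30e. They are printed 5′ to 3′, with the seed in capitals, to show what the members share and where reads of different members can be told apart.
miR-30a-5p: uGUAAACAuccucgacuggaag
miR-30e-5p: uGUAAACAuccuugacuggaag
miR-30c-5p: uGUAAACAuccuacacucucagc
miR-30a-3p: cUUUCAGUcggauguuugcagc
miR-30e-3p: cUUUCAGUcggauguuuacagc
miR-30c-2-3p: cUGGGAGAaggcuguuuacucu
miR-30c-1-3p: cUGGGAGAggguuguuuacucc

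All of the 5p strands shown carry the same seed, and the 3p strands fall into a group shared by Mir30a and Mir30e and a group shared by the Mir30c genes. With positions counted from 1 at the 5′ end, miR-30a-5p and miR-30e-5p differ by a single base, C13U, and their 3p strands by G18A. miR-30c-5p differs from miR-30a-5p at 5 of the 22 bases compared, C13A, G14C, G18C, G19U and A20C, and the first 12 bases are identical. The 3p strands of Mir30c-2 and Mir30c-1 differ at 3 bases, A9G, C12U and U22C.

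The 5p strand of miR-30c is the same at both of its genes, and this limits what their counts can show. Among the 1005 hairpins in the RefSeq table, Mir30c-1 and Mir30c-2 share a stretch of 28 bases with each other, which starts at the first base of miR-30c-5p and runs 5 bases past its 3′ end.
Stretch in both Mir30c hairpins: uguaaacauccuacacucucagcuguga
A read inside this stretch matches both places. Reads mapped to several places were deposited in a row of their own, 48.0% of reads in replicate 1 and 46.4% in replicate 2, and enter no gene. The levels of Mir30c-1 and Mir30c-2 below are therefore those of reads that reach outside the stretch or come from the 3p arm, and can be too low. Mir30a and Mir30e share at most 18 bases with another hairpin of the table, with each other, which is shorter than any of the mature strands shown. Stretches that Mir30b or Mir30d may share with other genes, and matches elsewhere in the genome, were not tested.

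The sense reads of all microRNA genes summed to 3650782 in replicate 1 and 3810675 in replicate 2. Levels are given as CPM, counts per 1000000 of these reads, and were not divided by hairpin length because a count is a read of a short strand and not of the whole hairpin. A count adds both arms of a hairpin. Cardiac marker genes were present, but not all were abundant. Mir208a was at 1329 CPM in replicate 1 and 4265 CPM in replicate 2, and Mir499 at 2601 and 2507 CPM. Of the other genes on the list of 7, Mir208b was at 24.7 and 118 CPM and Mir1a-2 at 68.8 and 39.4 CPM. Mir1a-1 and the miR-133a genes stood at 5.51 CPM or less in each library. Reads that match several places enter none of these genes. Each member had at least 1432 counts in each library. Counting error alone is therefore small, and the Clopper-Pearson 95% intervals given below cover only that error, since reads without molecular identifiers are not independent molecules.

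The 6 genes together held 138778 counts in replicate 1, or 3.80% of the microRNA counts (95% interval 3.78 to 3.82), and 113681 counts in replicate 2, or 2.98% (2.97 to 3.00). The mean was 3.39% ± 0.578 (SD, n = 2), and the intervals of the libraries did not overlap. Mir30a, Mir30d and Mir30e made up 94.2% of the family in replicate 1 and 92.0% in replicate 2. The other 3 genes, Mir30b, Mir30c-1 and Mir30c-2, made up 5.77% and 7.99%. Reads within the stretch shared by the Mir30c genes, which holds all of miR-30c-5p, enter none of the shares given here. How many such reads there were is not known.

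Among the abundant members, Mir30a had 48938 counts in replicate 1 and 33556 in replicate 2, which is 13405 and 8806 CPM. Its mean was 11105 CPM ± 3252 (SD, n = 2), and it ranked 16 of the 2202 genes in replicate 1 and 19 in replicate 2. Mir30d had 49430 and 29571 counts, which is 13540 and 7760 CPM, with a mean of 10650 CPM ± 4087 and ranks of 14 and 20. Mir30e had 32396 and 41471 counts, which is 8874 and 10883 CPM, with a mean of 9878 CPM ± 1421 and ranks of 21 and 17 (SD, n = 2 each). In replicate 1 Mir30d was highest and Mir30e lowest of these 3 genes, and in replicate 2 Mir30e was highest and Mir30d lowest. Their ranges over the libraries overlapped, so the data give them no order.

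**Figure D1:**
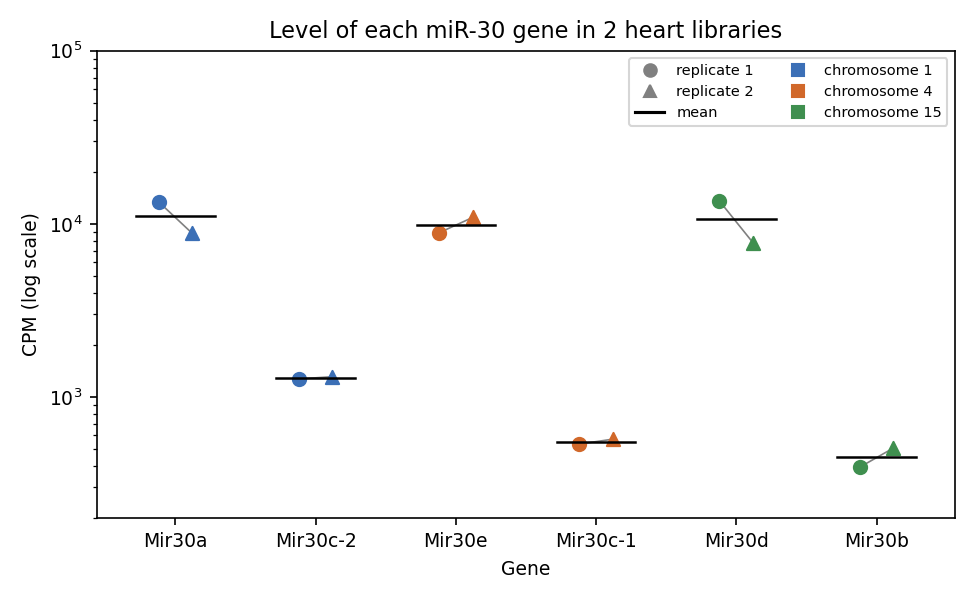
CPM on a log scale (y) of each miR-30 gene (x) in replicate 1 (circles) and replicate 2 (triangles), with the mean of the 2 libraries as a bar and the chromosome as colour. Mir30a, Mir30d and Mir30e lie between 7760 and 13540 CPM, and Mir30c-2, Mir30c-1 and Mir30b between 392 and 1308 CPM.

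Among the members with fewer counts, Mir30c-2 had 4634 and 4984 counts, which is 1269 and 1308 CPM, with a mean of 1289 CPM ± 27.3. Mir30c-1 had 1948 and 2171 counts, which is 534 and 570 CPM, with a mean of 552 CPM ± 25.5. Mir30b was lowest of the family in each library, with 1432 and 1928 counts, which is 392 and 506 CPM, and a mean of 449 CPM ± 80.4 (SD, n = 2 each). These 3 genes kept the order Mir30c-2, Mir30c-1, Mir30b in both libraries. Their ranges did not overlap with each other or with those of Mir30a, Mir30d and Mir30e. For the Mir30c genes this holds for counted reads only, since reads within their shared stretch enter neither gene. The gap between Mir30c-1 and Mir30b was narrow, with a ratio of 1.36 in replicate 1 and 1.13 in replicate 2. Of the 15 pairs of members, 3 had overlapping ranges, all among Mir30a, Mir30d and Mir30e, and the order of the same 3 pairs differed between the libraries. No order was tested, since sign flips over 2 libraries (an exact permutation test, two-sided) cannot give a p below 0.5.

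Mir30c-2 and Mir30c-1, on different chromosomes, had the steadiest ratio of the 15 pairs, 2.38 in replicate 1 against 2.29 in replicate 2, or 1.22 ± 0.04 as the mean of the log2 ratios (SD, n = 2). Mir30e over Mir30b followed, at 22.6 and 21.5 times. Mir30d over Mir30b, which are neighbours, had the widest spread, with an SD of 0.83 on the log2 scale (n = 2). The ratio of the Mir30c genes is that of their counted reads only, since reads within their shared stretch enter neither gene.

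The member pairs were compared by place in the genome on mm10. On chromosome 1, plus strand, Mir30a (23272269 to 23272339) overlaps no other annotated gene, and Mir30c-2 (23291701 to 23291784), 19361 bases downstream, lies in an exon of the long noncoding RNA Gm27028. Mir30a was at 10.6 times the level of Mir30c-2 in replicate 1 and at 6.73 times in replicate 2. The mean of the log2 ratios was 3.08 ± 0.46 (SD, n = 2). The pair summed to 14674 and 10114 CPM.

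On chromosome 4, minus strand, Mir30e (120772606 to 120772697) and Mir30c-1 (120769534 to 120769622) lie 2983 bases apart in introns of Nfyc, the gene of a subunit of the transcription factor NF-Y. Mir30e stood 16.6-fold above Mir30c-1 in replicate 1 and 19.1-fold in replicate 2. The log2 ratios averaged 4.15 ± 0.14 (SD, n = 2). The pair summed to 9407 and 11453 CPM, and it alone among the pairs was higher in replicate 2.

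On chromosome 15, minus strand, Mir30d (68341208 to 68341289) lies in an exon of the long noncoding RNA Gm20732 and overlaps an exon of Gm37296 by 9 bases. Mir30b (68337415 to 68337510), 3697 bases downstream, overlaps an exon of the noncoding transcript gene Gm26621 by 16 bases. The level of Mir30d was 34.5-fold that of Mir30b in replicate 1 and 15.3-fold in replicate 2. On the log2 scale the mean ratio was 4.52 ± 0.83 (SD, n = 2). The pair summed to 13932 and 8266 CPM.

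In every pair the member with more counts was at least 6.73 times the other in both libraries. For the pairs of chromosomes 1 and 4 the member with fewer counts is a Mir30c gene, so those ratios may be too high. Divided by hairpin length, the mean log2 ratios were 3.32, 4.11 and 4.75 on chromosomes 1, 4 and 15. The ratio within a pair differed between the libraries beyond counting noise for all 3 pairs by Fisher's exact test with Benjamini-Hochberg adjustment over the 3. The log2 ratio changed by -0.65 from replicate 1 to replicate 2 on chromosome 1 (exact, adjusted p = 4.75e-96), by 0.20 on chromosome 4 (exact, adjusted p = 1.66e-05) and by -1.17 on chromosome 15 (exact, adjusted p = 1.71e-115). This test sets the libraries against counting noise and takes no account of the spread between animals.

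Such gaps and changes are found at other places too. Over 69 pairs of neighbouring genes that share a strand, lie within 20000 bases and reach 10 CPM in each library, the median log2 ratio of the higher over the lower gene was 2.31, and its median change between the libraries was 0.74. These 69 pairs include the 3 miR-30 pairs. Reads that match several places enter none of these genes, so ratios of other pairs can also be too high or too low. How far this shapes the comparison was not tested. A larger ratio than that of Mir30d over Mir30b was found for 9 pairs, than that of Mir30e over Mir30c-1 for 14, and than that of Mir30a over Mir30c-2 for 27. A larger change between the libraries was found for 14, 58 and 39 pairs, in the same order.

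**Figure D2:**
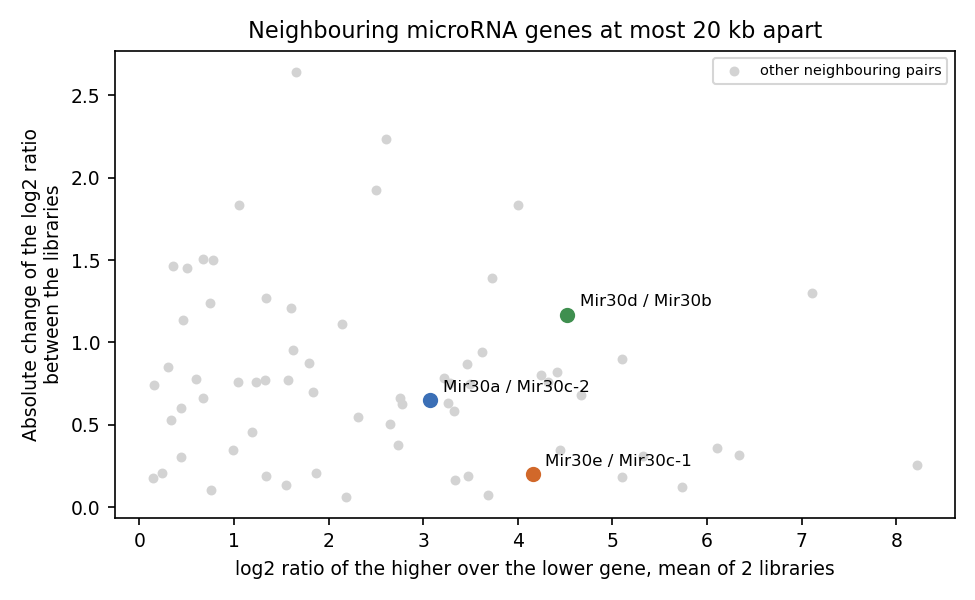
Each point is a pair of neighbouring microRNA genes, with the mean log2 ratio of the higher over the lower gene (x) and the absolute change of that ratio between the 2 libraries (y). The miR-30 pairs lie at 3.08, 4.15 and 4.52 on the x axis, right of the median of 2.31, and at 0.65, 0.20 and 1.17 on the y axis.

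The composition of the family differed between the libraries. Mir30e made up 23.3% of the family counts in replicate 1 (95% interval 23.1 to 23.6) and 36.5% in replicate 2 (36.2 to 36.8). Mir30d made up 35.6% (35.4 to 35.9) and 26.0% (25.8 to 26.3), and Mir30a 35.3% (35.0 to 35.5) and 29.5% (29.3 to 29.8). Mir30c-2 went from 3.34% to 4.38%, Mir30c-1 from 1.40% to 1.91% and Mir30b from 1.03% to 1.70%. Mir30a and Mir30d thus held smaller shares in replicate 2, and the other 4 genes larger ones. All of these shares leave out reads within the stretch shared by the Mir30c genes.

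**Figure D3:**
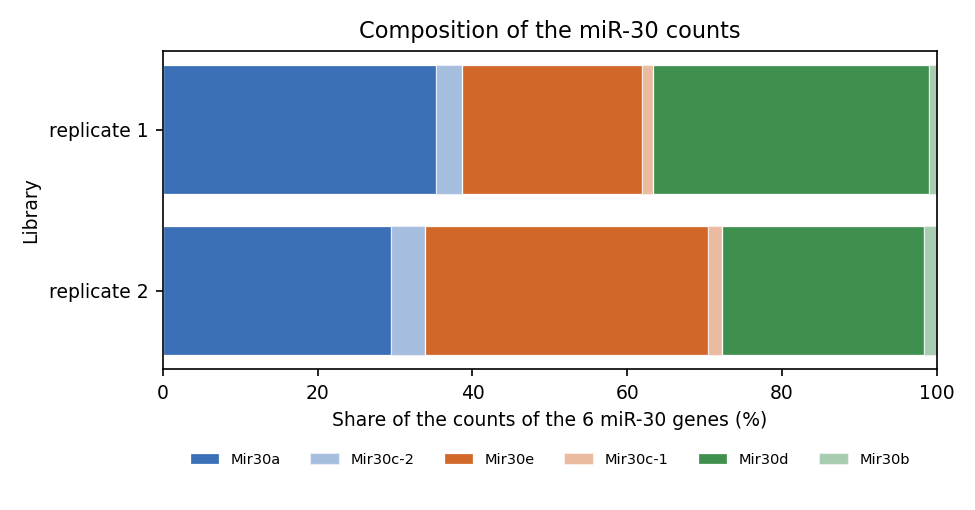
Share in % of the counts of the 6 miR-30 genes (x) held by each gene in replicate 1 and replicate 2 (y). Genes of a chromosome have the same hue, with the gene of a pair that has fewer counts in the lighter tone. Mir30e takes 23.3% of the bar of replicate 1 and 36.5% of that of replicate 2.

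Each member was then compared between the libraries within a test over all genes. The exact binomial test (two-sided) asked whether a gene's counts divide between the libraries as their TMM sizes do, with Benjamini-Hochberg adjustment over 320 genes and a threshold of 0.05. TMM is a scaling that takes most genes as equal between libraries. The test compares these 2 libraries and not conditions. Of all genes tested, 64.4% differed, 30.6% being higher and 33.8% lower in replicate 2. Of the 6 members 4 differed, with 2 higher and 2 lower in replicate 2. The counts depend on the low-count filter. With no filter all 6 members differed, beside 29.5% of 722 genes, and with a filter of 10 CPM in each library 5 of 6 differed, beside 73.9% of 238 genes.

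Mir30d was lower in replicate 2 by a log2 ratio of -0.82, and Mir30a by -0.62. For both, the adjusted p of the exact binomial test was below 1e-300. Mir30e was higher by a log2 ratio of 0.28 (exact binomial test, adjusted p = 2.57e-152) and Mir30b by 0.35 (exact binomial test, adjusted p = 5.49e-12). Mir30c-1, at 0.08 (exact binomial test, adjusted p = 0.109), and Mir30c-2, at 0.03 (exact binomial test, adjusted p = 0.400), did not pass. Both depend on the low-count filter, which also moves the TMM sizes. Mir30c-1 passed at a log2 ratio of 0.11 with a filter of 10 CPM in each library (exact binomial test, adjusted p = 0.0202), and Mir30c-2 passed at 0.11 with no filter (exact binomial test, adjusted p = 0.0013).

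These ratios were set beside those of all genes tested. The median absolute log2 ratio was 0.32 over the members and 0.42 over all 320 genes tested. A larger absolute ratio than that of Mir30d was found for 27.2% of the genes tested, than that of Mir30a for 38.1%, and than that of Mir30b for 57.5%. For Mir30e the share was 63.1%, for Mir30c-1 89.7% and for Mir30c-2 96.3%. The median signed log2 ratio was 0.06 over the members and 0.02 over all genes. The summed family was lower in replicate 2 by a log2 ratio of -0.36, with 4 of its 6 genes at a ratio above 0 and Mir30a and Mir30d below.

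**Figure D4:**
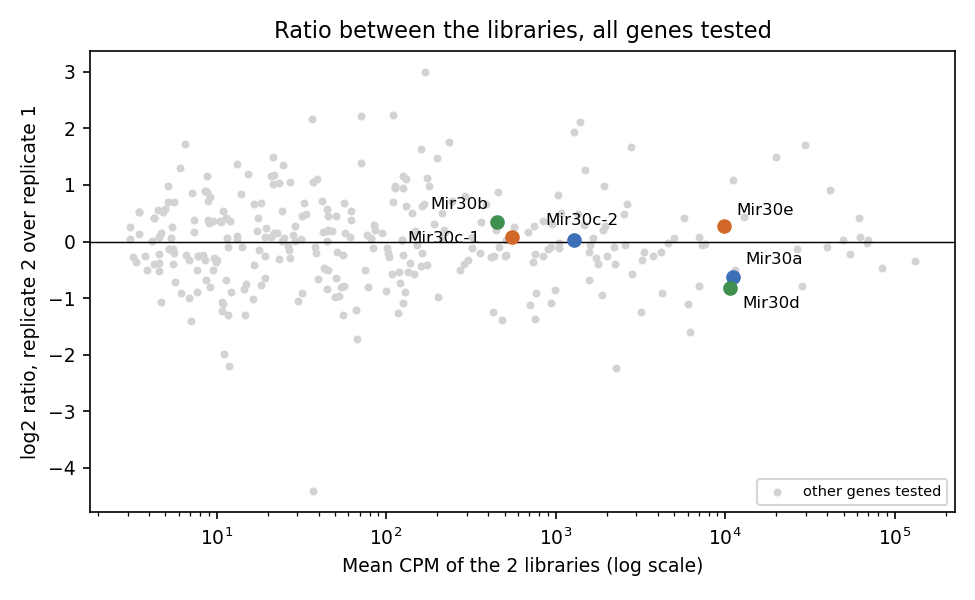
log2 ratio of replicate 2 over replicate 1 (y) against the mean CPM of the 2 libraries on a log scale (x) for the 320 genes tested, with the miR-30 genes in the colour of their chromosome. Mir30d and Mir30a lie below 0 at -0.82 and -0.62, and the other 4 members between 0.03 and 0.35.

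Among genes outside the family with a mean of at least 1000 CPM, the 3 whose ratio between the libraries lay nearest to that of the summed family were Mir378a at -0.35, Mir221 at -0.40 and Mir361 at -0.41. With 2 libraries this likeness is a single ratio per gene and is given as a description. Markers of cell types also differed between the libraries. The summed cardiac and striated muscle list was at 4032 CPM in replicate 1 and 6942 CPM in replicate 2, mostly through Mir208a, and of its 5 genes tested 2 were higher and 2 lower. The endothelial list was at 52212 and 70229 CPM, nearly all from Mir126a. The smooth muscle list summed to 54611 and 53284 CPM, with 1 gene higher and 1 lower in replicate 2. The erythroid list summed to 3221.5 and 2960 CPM, with 2 genes higher and 1 lower. Sums were 309 and 291 CPM for the neuronal list, 380 and 315 CPM for the epithelial list, and 142 and 97.9 CPM for the liver gene. Of 3 neuronal genes tested 1 was higher and 1 lower in replicate 2, and 4 of the 9 listed had no count. Of 6 epithelial genes tested 1 was higher and 2 were lower, and the liver gene was lower. The fibroblast linked list summed to 5045 and 4197 CPM, and its genes went opposite ways, with Mir21a at a log2 ratio of -1.25 and Mir214 at 2.11. All 5 leukocyte genes were lower in replicate 2, with sums of 10633 and 8667 CPM, beside 33.8% of all genes tested. The skeletal muscle gene Mir206 had the widest ratio among the cell type marker genes tested, at 37.0 and 303 CPM. Its log2 ratio was 3.00 (exact binomial test, adjusted p = 7.35e-190). Mir133b, the other gene of the skeletal muscle list, was at 6.03 and 5.25 CPM. It did not pass, at a log2 ratio of -0.20 (exact binomial test, adjusted p = 0.719). The part of these differences in the ratios of the miR-30 genes was not tested, and in whole tissue fewer cells of a type and less RNA per cell cannot be told apart.

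Other microRNA genes linked to connective tissue growth factor or to matrix were read from a list of 12 genes, which holds the miR-133 and miR-29 genes, Mir21a, Mir26b and Mir26a-1 among others, but not Mir26a-2. Of the 10 that were tested, 2 were higher and 3 lower in replicate 2, beside 30.6% higher and 33.8% lower of all genes tested. The median log2 ratio of the list was -0.03. The most abundant were Mir26b, at 35782 and 20913 CPM, and Mir29a, known for repressing collagens, at 10919 and 14824 CPM. The list held 5.21% of the counts in replicate 1 and 3.86% in replicate 2, beside 3.80% and 2.98% for the miR-30 family. Reads that match several places enter neither the list nor the family, so these shares may be cut by unlike amounts. This was not tested. The miR-133a genes had at most 21 counts each in either library, and reads that match several places enter no gene there either.

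Outside the members, 2 genes of the RefSeq table have a mature strand with one of the seeds shown. Mir384, whose 5p strand carries the seed of the miR-30 5p strands, was counted 5 times in replicate 1 and 10 times in replicate 2, with a mean of 2.00 CPM ± 0.887. Mir6958, whose 5p strand carries the seed of the miR-30c 3p strands, had 6 and 3 counts, a mean of 1.22 CPM ± 0.605 (SD, n = 2 each). Counted reads of these genes were thus few beside those of every member.

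A further gene named Mir30f is annotated on chromosome 4 at the same bases as Mir30e, from 120772606 to 120772697, on the opposite strand. Its mature sequence is printed here because its seed is that of the miR-30 5p strands moved by a base.
miR-30f: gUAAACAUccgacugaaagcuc
Of its 22 bases, 19 in a row are the reverse complement of the miR-30e-3p strand. No read on its own strand was counted in either library, so that uniquely placed reads may be at 0.822 CPM or less in replicate 1 and 0.787 CPM or less in replicate 2 (a limit of 3 counts). All reads at these bases were on the strand of Mir30e. The column of counts without strand holds 0 for Mir30e in both libraries, because a read that overlaps both genes is assigned to neither, so Mir30e can be read only from the column with strand. On the strand opposite to the other members, the files hold 1 read in all, at Mir30d in replicate 2.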

How the data were processed

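Small RNA libraries of whole heart from 2 replicates, whose labels share a donor identifier, were analysed as 1 group. The authors deposited raw read counts per microRNA gene, 1 file per library, with columns for reads counted without strand, in sense and in antisense. Per the deposited text beside each file, the assembly was mm10 and the genes were those of GENCODE M21. Aligner and counter are not given in the sources used here. The rows that name no gene (64.8% of reads in replicate 1, 63.6% in replicate 2) entered neither the totals nor the tests. CPM and ratios were computed from the sense column, with 0.5 CPM added before a log2 ratio between genes or libraries.

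Library sizes were scaled by TMM in edgeR 4.0.16 after filterByExpr, and the exact tests used scipy 1.17.1. DESeq2 1.42.0 size factors, plain totals, other filters, denominators and pseudocounts, the column without strand and each replicate left out were alternatives. The binomial test was run on simulated data that held counting noise only. That run cannot show how the test behaves with spread between animals. The genes named are the 6 members, at most the 2 most abundant genes of a list, the 3 genes nearest in ratio to the family, and genes that share a seed. Mir30f, Mir208b and the Mir1a, Mir26a and Mir133a genes were added after their values were seen. Of the list genes, Mir18a was matched as Mir18. The members and lists were chosen with earlier results of these data known.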

Additional observations from a re-analysis of the deposited data

How the results depend on the processing

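The family share, its 3 cluster ratios, the count of genes that differ, and the levels and ratios of the members were recomputed in 84 alternatives. Of these, 69 gave the same direction, call or value within the replicate spread. Values with a replicate left out could not fall outside that spread, since with 2 libraries each lies within the SD of their mean. Their agreement is therefore no check. Single levels in CPM moved beyond that spread in 10. The family share was 2.99% of all uniquely mapped reads and 3.92% with the most abundant gene left out of the total. The value without strand, 3.12%, is not a like share. It holds only 5 members, without Mir30e, over a smaller total, at which the mean of Mir30a rose from 11105 to 14428 CPM. Without strand Mir30e has no count, so its log2 ratio to Mir30c-1 became -10.48, a value set by the added 0.5 CPM. The calls of Mir30c-1 were gained at a log2 ratio of 0.16 with no low-count filter, 0.11 with a filter of 10 CPM in each library, and 0.11 without strand, and that of Mir30c-2 at 0.11 with no low-count filter (exact binomial test, adjusted p = 0.0013). These settings also change the TMM library sizes. The count of genes that differ lay between 176 of 238 tested (73.9%, filter of 10 CPM) and 213 of 722 (29.5%, no filter), against 206 of 320 (64.4%), so the share called depends on the filter. The other 4 members kept their direction and call in each scaling and filter, except that Mir30e has no value without strand. No paired analysis was possible because the libraries form 1 group. Depth does not limit the members' levels, since each had at least 1432 counts, while reads mapped to several places do limit those of Mir30c-1 and Mir30c-2. That limit was not tested for Mir30b and Mir30d.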
